A study of Mus musculus with 48 samples.

Results

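Collagens are the main structural proteins of the extracellular matrix. Each molecule is built from chains that wind around each other into a stiff helix, and every chain has a gene of its own. The classes differ in what they build. Fibrillar collagens form the banded fibres of bone, tendon, cartilage and skin, fibril-associated collagens coat those fibres, and basement membrane collagens form the sheet that in the brain lies under the endothelium of blood vessels and under the astrocyte endfeet. The brain parenchyma holds little fibrillar collagen, and glucocorticoids are known as repressors of collagen synthesis in skin fibroblasts.

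The collagen chain genes described here are all genes on the array whose symbol in the platform annotation is Col, a number, a and a number. There are 44 of them among 20250 genes with a current symbol, and 1 probe stands for each, the brightest on average over all 48 arrays. They were measured with Illumina MouseWG-6 v2 arrays in primary cultures of striatal neurons and of astrocytes from C57Bl/6J mice, in 12 groups of 4 arrays. In each cell type the groups were vehicle, the synthetic glucocorticoid dexamethasone at 100 nM, and aldosterone (the mineralocorticoid of the adrenal cortex), progesterone, dihydrotestosterone (an androgen) and estradiol (an estrogen), each at 200 nM, all for 4 h. The vehicle was dilute ethanol, and all cultures were kept in Neurobasal medium without supplements for the treatment. Before that, the astrocytes had grown in high-glucose DMEM with serum and the neurons in Neurobasal medium with a supplement. The neurons came from embryos late in gestation. The astrocytes came from pups in the first days after birth and were selected with magnetic beads for the glutamate transporter GLAST. Cell type thus cannot be told apart from age, isolation and growth medium. Matched by their values, the arrays of each chip also came from 1 cell type, though the labels give another layout (see the processing below). If that match holds, cell type cannot be told apart from chip either. If the labels hold instead, chip cannot be told apart from steroid, nor from cell type with vehicle. Levels are log2 intensities, on which a difference of 1 is a doubling. The level of 1 gene was not compared with that of another, since the probes differ in how strongly they bind.

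Neurons vehicle array 3 and neurons dexamethasone array 3 were left out of every fit, unless said otherwise. The mean over 15 known glucocorticoid receptor targets was 11.31 on that vehicle array against 10.42 to 10.44 on the other vehicle arrays of the neurons, and 10.78 on that dexamethasone array against 11.29 to 11.30 on the other dexamethasone arrays. All values below come from 46 arrays in 1 limma fit with Benjamini-Hochberg adjustment over all probes, and a gene is called at a false discovery rate (FDR) of 0.01. All 9 astrocyte markers were higher in the astrocyte cultures, and 8 of 10 neuronal markers were higher in the neuronal cultures. Some markers of other cells were also higher in the astrocyte cultures, and of these lists only the microglial one was higher in full. All 7 microglial markers were higher there than in the neuronal cultures, with array means of 11.02 to 11.14 against 8.10 to 8.22. Of 9 markers of pericytes and smooth muscle, 3 were higher (Acta2 by 6.73, Tagln by 3.34 and Pdgfrb by 0.98), with array means of 8.68 to 8.87 against 7.59 to 7.61. Rgs5, Kcnj8, Abcc9, Anpep, Notch3 and Myh11 were not called. Of 12 markers of fibroblasts and meningeal cells, 3 were higher (Ogn, Foxc1 and Islr) and 2 were lower (Dcn and Osr1), with array means of 8.31 to 8.77 against 7.93 to 7.99. Of 8 endothelial markers, Flt1 was higher and Cldn5 and Emcn were lower. Of 8 markers of the oligodendrocyte lineage, Olig2 (-1.19), Sox10 (-3.34), Pdgfra (-3.42) and Mbp (-3.47) were higher in the neuronal cultures and Cnp (1.70) in the astrocyte cultures, with array means of 9.24 to 9.61 in astrocytes against 10.63 to 10.68 in neurons. The part of these cells in the results below was not tested.

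A pair of promoters is shown first, because their genes, Col4a1 and Col4a2, moved together in what follows. The pair was thus chosen by its result, and whether the promoters had a part in it was not tested. These genes encode the chains of the most widespread basement membrane collagen, and they lie head to head on chromosome 8, transcribed in opposite directions. In the RefSeq windows from 250 bases before to 50 bases after each transcription start (build GRCm38.p6), the starts lie 21 bases apart and the windows share 78 bases. The capitals mark CCAAT or its reverse ATTGG, a sequence that many promoters hold.
Col4a1 (chr8:11312777-11313076, minus strand): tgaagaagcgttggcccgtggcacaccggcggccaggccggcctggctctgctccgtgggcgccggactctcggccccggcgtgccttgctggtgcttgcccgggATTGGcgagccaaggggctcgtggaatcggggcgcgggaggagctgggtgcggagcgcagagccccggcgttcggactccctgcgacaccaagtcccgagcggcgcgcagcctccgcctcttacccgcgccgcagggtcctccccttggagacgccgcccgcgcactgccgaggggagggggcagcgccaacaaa
Col4a2 (chr8:11312555-11312854, plus strand): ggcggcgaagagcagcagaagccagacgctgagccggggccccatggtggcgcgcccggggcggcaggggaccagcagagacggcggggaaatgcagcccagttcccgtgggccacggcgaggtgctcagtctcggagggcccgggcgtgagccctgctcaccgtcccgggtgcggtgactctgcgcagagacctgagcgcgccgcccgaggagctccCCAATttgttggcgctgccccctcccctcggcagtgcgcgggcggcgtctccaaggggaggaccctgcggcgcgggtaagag
Both windows are rich in G and C, at 74.0% for Col4a1 and 73.7% for Col4a2, against a median of 52.7% over 32851 promoter windows. Each holds CCAAT once when both strands are read. Windows were at hand for 35 of the 44 genes, 38 windows in all. Of these, 13 (34.2%) held CCAAT on either strand, against 37.4% of all windows, and 23 (60.5%) held GGGCGG, the letters of the GC box bound by Sp1, against 35.7% of all windows. The half-site of the glucocorticoid receptor element, AGAACA, stood on either strand in 2 windows (5.26%), those of Col9a1 and Col20a1, against 19.0% of all windows. The full palindrome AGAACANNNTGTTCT, which contains the half-site, was in 0 of the 38 windows and in 3 of all 32851. These counts describe the letters in the windows and say nothing of binding.

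In vehicle-treated cultures, 23 of the 44 genes had a mean of 7.5 or more in astrocytes and 17 in neurons. The level of 7.5 was set here as a mark of dim probes. By their mean over the 46 arrays 23 of the 44 genes reached it, and 46.3% of all genes, each by its brightest probe, lay under it, so that the collagens were about as often dim as other genes. In both cell types 14 genes reached it, in astrocytes only 9, and in neurons only 3. The remaining 18 were under 7.5 in both, and for such genes a small difference would be hard to see. Among those dim in both cell types were Col10a1, Col11a1, Col11a2 and Col27a1, which are known from cartilage, the transmembrane Col13a1, Col17a1 and Col25a1, and also Col1a2 and Col3a1. Other collagens of cartilage were not dim throughout, since Col2a1 (7.61 in astrocytes and 8.24 in neurons) and Col9a2 (8.16 and 7.83) reached 7.5 in both cell types and Col9a3 (8.69) in neurons. A level under 7.5 may be background, so that a difference from a dim group is best read as a lower bound.

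Astrocytes and neurons differed in many collagen chain genes. In vehicle-treated cultures 22 of 44 were called, 17 higher in astrocytes and 5 higher in neurons, where 42.8% of all 20250 genes were called, 22.9% higher in astrocytes and 19.9% higher in neurons. The share of members higher in astrocytes was thus above that of all genes, and the share higher in neurons was below it. The median difference over the 44 genes was 0.28 on the log2 scale, against 0.01 over all genes. Differences ran from 4.70 for Col8a2 to -1.80 for Col9a3. Of the 22 genes called, 14 had a second probe, which was called in the same direction for 9, had the same sign without being called for 2 (Col5a2 and Col7a1), and had the opposite sign for 3 (Col1a1, Col9a3 and Col22a1). Still dimmer probes of Col4a6, Col5a2, Col8a2, Col12a1 and Col18a1 were under 7.5 in both cell types. They gave -0.16 to 0.13 and were not called, nor was the dimmest probe of Col2a1, at -0.38. Fewer cells of a type and less RNA per cell cannot be told apart in such bulk samples.

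**Figure D1:**
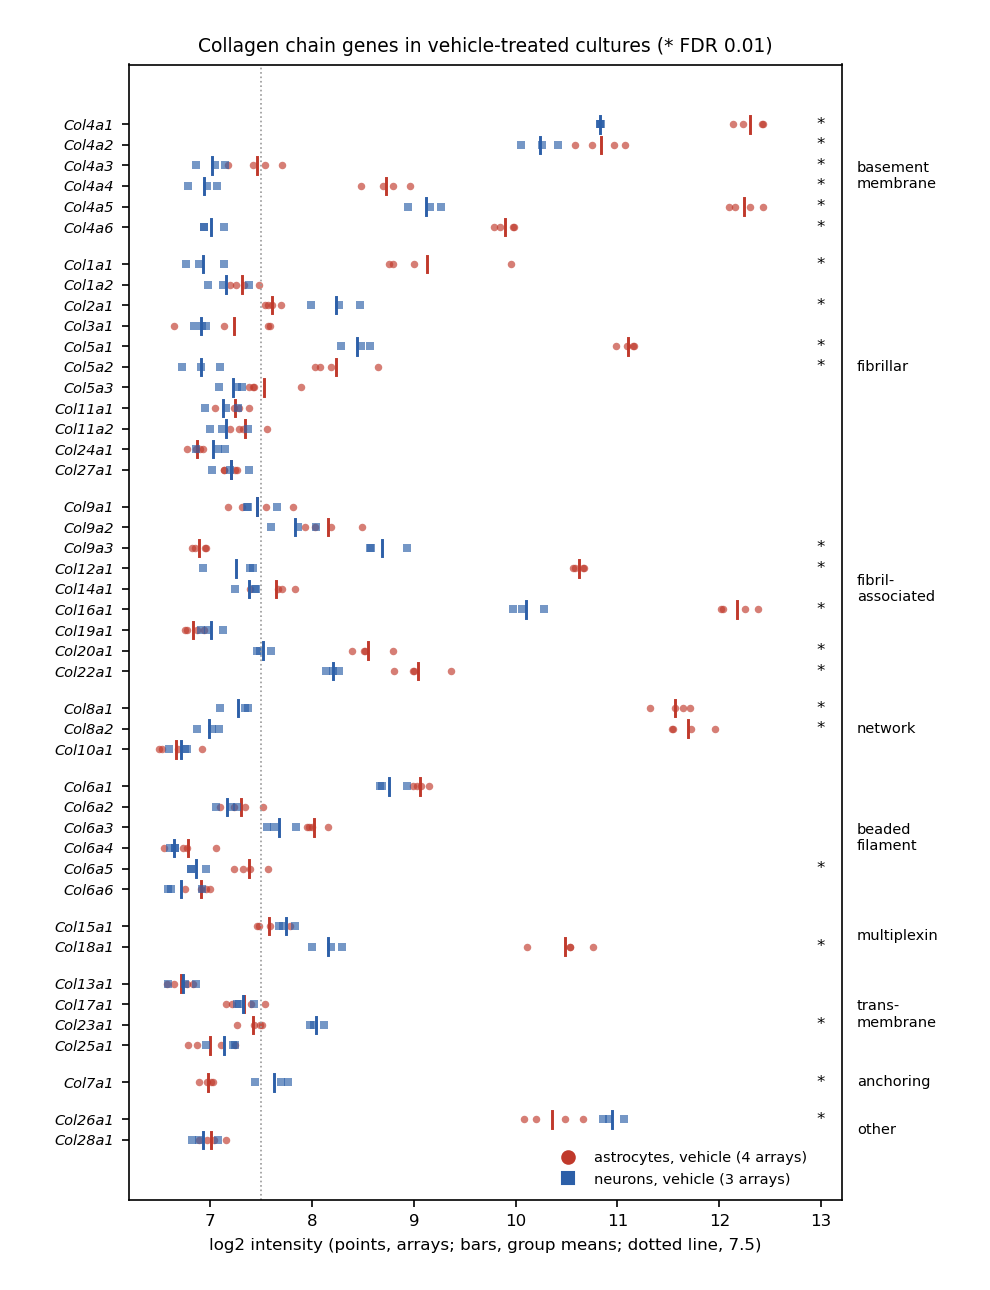
Log2 intensity of the 44 collagen chain genes in vehicle-treated astrocytes (circles, 4 arrays) and neurons (squares, 3 arrays), by class, with group means as bars, 7.5 as a dotted line and asterisks for genes called at FDR 0.01. All 6 basement membrane chains and the network chains Col8a1 and Col8a2 lie higher in astrocytes, and Col9a3 lies higher in neurons.

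The network collagens Col8a1 and Col8a2 encode the chains of collagen VIII, a short-chain collagen best known from the membrane under the corneal endothelium and from vessel walls, and they had the largest differences. Col8a2 read 11.96, 11.55, 11.72 and 11.54 on the astrocyte arrays and 6.87, 7.09 and 7.02 on the neuron arrays. The difference was 4.70 ± 0.10 (SE, limma, adjusted p = 8.08e-38). Col8a1 read 11.56, 11.32, 11.64 and 11.71 in astrocytes and 7.10, 7.34 and 7.37 in neurons, a difference of 4.29 ± 0.12 (adjusted p = 2.43e-32). Both chains were thus bright in astrocytes and under 7.5 on every neuron array. The second-brightest probe of each gene gave 1.42 for Col8a2 and 4.02 for Col8a1. The remaining member of the class, Col10a1, which belongs to the growth plate of bone, was dim in both cell types, and its difference was -0.05 ± 0.11 (adjusted p = 0.792).

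All 6 basement membrane chains were called and all were higher in astrocytes, with a median difference of 1.63. These genes lie in pairs, Col4a1 beside Col4a2, Col4a3 beside Col4a4, and Col4a5 beside Col4a6. Col4a5 read 12.30, 12.10, 12.15 and 12.43 in astrocytes and 9.27, 9.16 and 8.94 in neurons, a difference of 3.12 ± 0.15 (limma, adjusted p = 6.69e-24). Its neighbour on the X chromosome, Col4a6, read 9.98, 9.97, 9.79 and 9.85 against 6.94, 7.14 and 6.94, a difference of 2.89 ± 0.11 (adjusted p = 3.73e-28). Neither gene's arrays overlapped between the cell types. Second probes gave 3.23 for Col4a5 and 2.44 for Col4a6, while the dimmer further probes of Col4a6 gave -0.16 and 0.13. Col4a4, a chain of the collagen of the kidney's filtration barrier, read 8.80, 8.70, 8.48 and 8.96 against 7.07, 6.97 and 6.78, a difference of 1.79 ± 0.12 (adjusted p = 6.89e-18), and its second probe gave 0.54 (adjusted p = 6.29e-06). Its neighbour Col4a3, a partner of Col4a4 in that collagen, differed by 0.44 ± 0.11 (adjusted p = 0.000523), and its mean was 7.46 in astrocytes and 7.02 in neurons. The ubiquitous chains were present in both cell types, Col4a1 at 12.30 in astrocytes and 10.83 in neurons and Col4a2 at 10.84 and 10.24. Their differences were 1.47 ± 0.11 (adjusted p = 1.67e-16) and 0.60 ± 0.14 (adjusted p = 0.000283).

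Of 11 fibrillar collagens, 3 were higher in astrocytes and Col2a1 was higher in neurons, with a median of 0.17. Col5a1, whose product regulates the thickness of fibrils, read 11.15, 11.09, 11.16 and 10.99 in astrocytes and 8.48, 8.57 and 8.28 in neurons. The difference was 2.65 ± 0.11 (limma, adjusted p = 3.68e-26), and its partner chain Col5a2 differed by 1.33 ± 0.16 (adjusted p = 5.21e-10), though its second probe gave 0.33 (adjusted p = 0.0212) and was not called. Col1a1, a chain of the collagen of bone and skin, read 8.76, 8.80, 9.95 and 9.0 in astrocytes and 7.14, 6.76 and 6.89 in neurons, a difference of 2.20 ± 0.24 (adjusted p = 2.82e-11). Astrocyte array 3 stood apart for Col1a1, and the mean over the 12 markers of fibroblasts and meningeal cells was also highest on that array, at 8.77 against 8.31 to 8.57 on the others. Its part in the Col1a1 difference was not tested. The probes of Col1a1 disagreed, since the second probe gave -1.60 (adjusted p = 2.91e-17), higher in neurons. The partner chain Col1a2 differed by 0.15 ± 0.11 (adjusted p = 0.308) and stayed dim in both cell types. Col2a1, the main fibrillar collagen of cartilage, read 7.54, 7.70, 7.57 and 7.61 in astrocytes and 8.27, 8.47 and 7.99 in neurons, a difference of -0.64 ± 0.12 (adjusted p = 8.11e-06). The other 6 fibrillar members, Col3a1, Col5a3, Col11a1, Col11a2, Col24a1 and Col27a1, did not pass the test, with differences from -0.17 to 0.33.

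Of 9 fibril-associated collagens, 4 were higher in astrocytes and Col9a3 was higher in neurons, with a median of 0.33. Col12a1, a large chain found along fibrils of tendon and ligament, read 10.67, 10.58, 10.66 and 10.56 in astrocytes and 6.93, 7.39 and 7.42 in neurons. Its difference was 3.37 ± 0.13 (limma, adjusted p = 8.74e-27), from a dim level in neurons, and its second probe gave 1.84. Col16a1 read 12.25, 12.04, 12.02 and 12.38 in astrocytes and 10.28, 9.97 and 10.06 in neurons, a difference of 2.07 ± 0.11 (adjusted p = 8.93e-22). Col16a1 was thus well above the dim level in both cell types, and Col12a1 in astrocytes alone. Col20a1 (1.04 ± 0.12, adjusted p = 2.53e-10) and Col22a1 (0.84 ± 0.12, adjusted p = 8.18e-08), the latter known from the junction of muscle and tendon, were also higher in astrocytes, but the second probe of Col22a1, dim in both cell types, gave -0.02 (adjusted p = 0.93). Col9a3 encodes a chain of collagen IX, which decorates cartilage fibrils. It read 6.95, 6.82, 6.85 and 6.96 in astrocytes and 8.58, 8.57 and 8.93 in neurons, a difference of -1.80 ± 0.13 (adjusted p = 1.08e-16), while its second probe gave 0.25 (adjusted p = 0.0722). The partner chains Col9a1 (-0.00 ± 0.13, adjusted p = 0.997) and Col9a2 (0.33 ± 0.13, adjusted p = 0.0399) did not pass the test. Col14a1 and Col19a1 did not pass either, at 0.27 and -0.17.

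Among the smaller classes, Col18a1, the source of the angiogenesis inhibitor endostatin and a component of basement membranes, was the most different. It read 10.53, 10.76, 10.11 and 10.53 in astrocytes and 8.29, 8.19 and 8.0 in neurons, a difference of 2.32 ± 0.15 (limma, adjusted p = 4.64e-19), while its second probe, dim in both cell types, gave 0.35 (adjusted p = 0.00954). The other multiplexin, Col15a1, differed by -0.17 ± 0.11 (adjusted p = 0.282). Of the 6 beaded filament chains of collagen VI, only Col6a5 passed the test, at 0.52 ± 0.10 (adjusted p = 2.45e-05), and the other 5 ran from 0.12 to 0.34. Col6a1 had a mean of 9.06 in astrocytes and 8.76 in neurons. The remaining genes called were higher in neurons. Col7a1, the anchoring fibril collagen of skin, read 7.01, 6.97, 7.03 and 6.89 in astrocytes and 7.44, 7.70 and 7.76 in neurons, a difference of -0.66 ± 0.10 (adjusted p = 2.13e-07), but its second probe gave -0.04. The transmembrane Col23a1 read 7.49, 7.26, 7.51 and 7.43 against 8.02, 7.98 and 8.12, a difference of -0.62 ± 0.11 (adjusted p = 5.61e-06). Col26a1, first described in developing testis and ovary, read 10.66, 10.48, 10.20 and 10.08 against 10.92, 11.06 and 10.86, a difference of -0.59 ± 0.12 (adjusted p = 5.16e-05), and was bright in both cell types. For these 3 genes, too, the arrays of the cell types did not overlap. Beside the collagens higher in neurons, markers of the oligodendrocyte lineage were also higher in those cultures, as given above, and their part was not tested. Col13a1, Col17a1, Col25a1 and Col28a1 did not pass the test, with differences from -0.14 to 0.08.

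The difference between the cell types was measured again on arrays that the comparison above did not use, those of aldosterone, progesterone, dihydrotestosterone and estradiol, 16 in each cell type. All 22 genes kept their direction and were called there. In all, 31 of 44 were called, 25 higher in astrocytes and 6 higher in neurons, where 59.0% of all genes were called, 31.0% and 28.0% in these directions. Col8a2 gave 4.62 ± 0.05 and Col9a3 -1.90 ± 0.06 on these arrays (limma, adjusted p = 1.41e-52 and 2.68e-31). The 9 genes called there and not with vehicle had small differences, from -0.26 for Col19a1, a collagen of interneurons in mouse brain, to 0.38 for Col6a1. Arrays with the same number deviate together within a cell type, so these arrays are separate samples but not fully independent of the vehicle arrays. Nor are the 16 arrays of a cell type fully independent of each other, since array numbers recur across the steroids. The fit took them as independent, so the errors and p-values here may be too small and the counts too high. By the match of values described below, they also lay on the chips of the vehicle arrays. If that match holds, the repeat could not separate cell type from chip. Age, isolation and growth medium also went with cell type on these arrays.

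**Figure D2:**
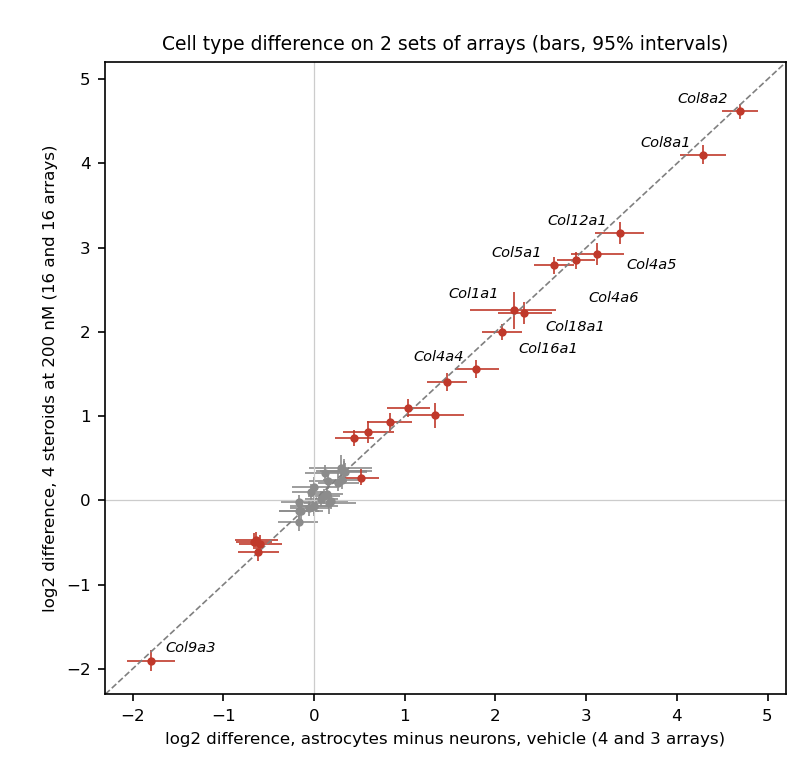
Log2 difference between astrocytes and neurons for each of the 44 collagen chain genes, with vehicle (horizontal axis, 4 and 3 arrays) and on the arrays of the 4 steroids at 200 nM (vertical axis, 16 and 16 arrays), with 95% intervals as bars. The intervals take the arrays as independent. Red points were called with vehicle, grey points were not, and the points lie along the dashed line of equal differences from Col9a3 (-1.80 and -1.90) to Col8a2 (4.70 and 4.62).

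Dexamethasone changed 5 of the 44 genes in astrocytes, where 5.24% of all genes were called. Col4a1, Col4a2 and Col4a3 rose, and 2.68% of all genes rose. Col8a1 and Col16a1 fell, and 2.56% of all genes fell. All 3 genes that rose were basement membrane chains, of which there are 6 (median change 0.21), and none of the 11 fibrillar chains was called (median change -0.03). This does not show that the fibrillar chains were unchanged. Col1a1 gave -0.42 ± 0.22 (limma, adjusted p = 0.357), with a larger error than the genes called, and its second probe gave -0.08. Col5a2 gave -0.03, while its second probe, dim in both cell types, gave -0.39 (adjusted p = 0.0159). The median over the 44 genes was -0.03, against -0.01 over all genes. As a check of the treatment, 14 of the 15 glucocorticoid receptor targets rose, with a median of 2.37. The list was chosen with earlier results of these data known, so this check is a weak one.

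Col4a3 had the smallest p. It read 7.54, 7.71, 7.18 and 7.42 with vehicle and 7.95, 7.99, 8.10 and 8.04 with dexamethasone. Every treated array lay above every vehicle array, and the change was 0.56 ± 0.10 (95% interval 0.36 to 0.76, limma, adjusted p = 5.93e-05). The gene was dim, with a mean under 7.5 over the arrays. Its neighbour and partner chain Col4a4 was not called. Col4a4 read 8.80, 8.70, 8.48 and 8.96 with vehicle and 8.76, 8.30, 8.11 and 8.44 with dexamethasone, a change of -0.33 ± 0.11 (adjusted p = 0.0771). The arrays overlapped.

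The head-to-head pair Col4a1 and Col4a2, whose promoters are printed above, rose together. Col4a1 read 12.43, 12.23, 12.13 and 12.42 with vehicle and 12.96, 13.02, 12.54 and 12.49 with dexamethasone, a change of 0.45 ± 0.10 (limma, adjusted p = 0.00194). Treated arrays 1 and 2 lay well above the vehicle arrays, and arrays 3 and 4 only just. Col4a2 read 10.75, 10.58, 11.07 and 10.97 with vehicle and 11.30, 11.51, 11.36 and 11.20 with dexamethasone, a change of 0.50 ± 0.13 (adjusted p = 0.00853). The lowest treated array lay 0.13 above the highest vehicle array. The X-linked basement membrane chains Col4a5 and Col4a6 gave -0.16 (95% interval -0.44 to 0.11) and -0.02 (-0.22 to 0.18).

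Col8a1, the network chain, fell by 0.63 ± 0.11 (95% interval -0.86 to -0.40, limma, adjusted p = 8.95e-05). It read 11.56, 11.32, 11.64 and 11.71 with vehicle and 10.79, 10.98, 10.93 and 11 with dexamethasone, with no overlap. Its second probe gave -0.77 (adjusted p = 2.92e-05). The partner chain Col8a2 gave -0.08 (-0.27 to 0.10), and the difference between the changes of both chains was not tested. The fibril-associated Col16a1 fell by 0.42 ± 0.10 (adjusted p = 0.00584). It read 12.25, 12.04, 12.02 and 12.38 with vehicle and 11.82, 11.75, 11.75 and 11.71 with dexamethasone, with no overlap.

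The calls differed in how far they rested on single arrays. Col4a3 and Col8a1 were called without any single array of the comparison, whereas leaving out dexamethasone array 2 left only these 2, and each of 4 other arrays left 3 genes. By the Student t-test of the methods, which takes the spread from each gene alone, 0 of the 44 were called. The share of all genes called by this t-test was not counted, so the 0 is not read as particular to the collagens. Of 7 microglial markers, Cx3cr1 (-1.04) and P2ry12 (-0.58) were called lower with dexamethasone, while the median over the 7 was -0.04. Their array means were 10.73 to 10.93 with dexamethasone against 11.02 to 11.14 with vehicle, and their part in the changes above was not tested. The means over the markers of fibroblasts and meningeal cells were 8.33 to 8.69 against 8.31 to 8.77, with 0 of 12 called. The means over those of pericytes and smooth muscle were 8.73 to 8.84 against 8.68 to 8.87, with 0 of 9 called. Those of the oligodendrocyte lineage were 9.20 to 9.74 against 9.24 to 9.61, with 0 of 8 called.

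**Figure D3:**
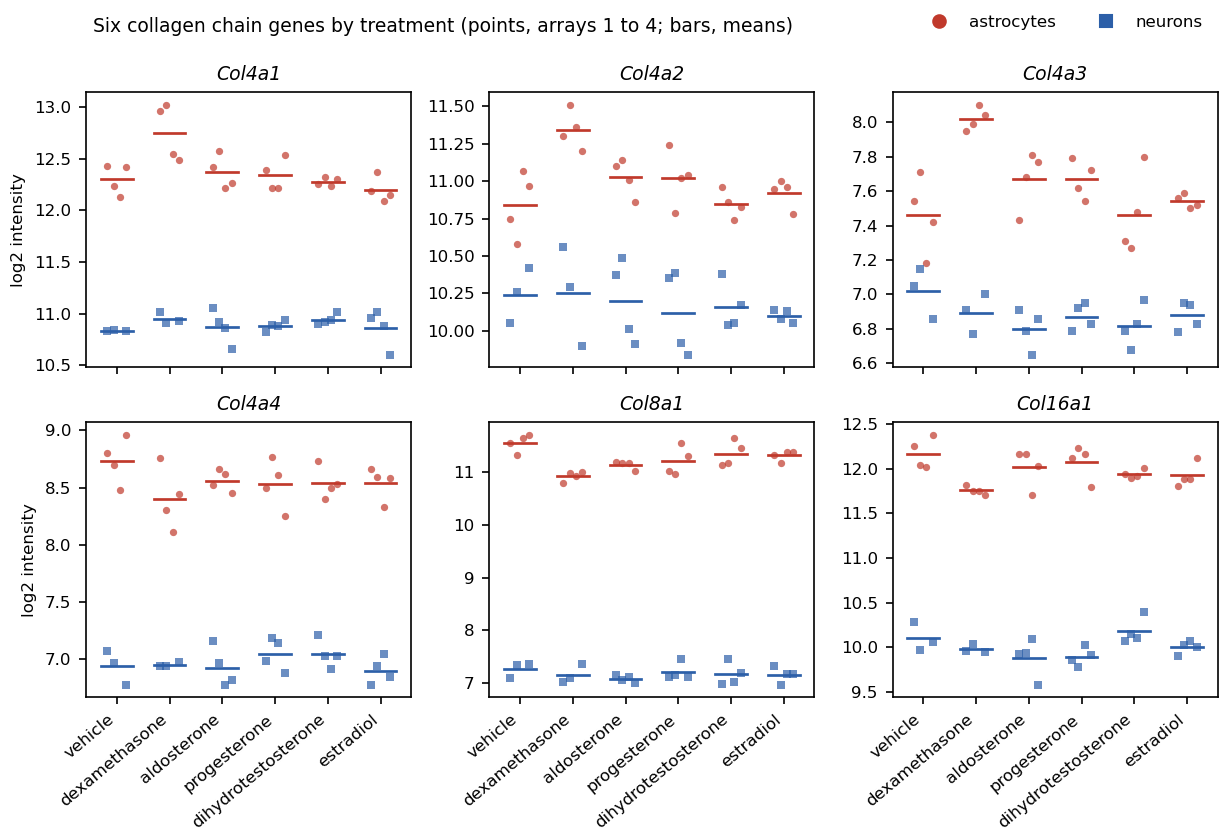
Log2 intensity of Col4a1, Col4a2, Col4a3, Col4a4, Col8a1 and Col16a1 on each array of the 6 treatments in astrocytes (circles) and neurons (squares), with group means as bars. Each panel has its own vertical axis, which does not start at 0. With dexamethasone the astrocyte arrays of Col4a3 lie at 7.95 to 8.10 above all vehicle arrays, and those of Col8a1 lie at 10.79 to 11 below them.

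In neurons, dexamethasone changed 0 of the 44 genes, where 0.212% of all genes were called (0.163% higher and 0.0494% lower). Of the 44, 1 gene had an unadjusted p under 0.05. For counts at this unadjusted p, here and below, the share over all genes was not counted. They are thus not read as a result about the collagens. The 5 genes changed in astrocytes gave 0.12 ± 0.12 (Col4a1), 0.01 ± 0.15 (Col4a2), -0.13 ± 0.11 (Col4a3), -0.11 ± 0.13 (Col8a1) and -0.12 ± 0.12 (Col16a1). Whether the change differed between the cell types was tested itself. It differed for 1 of the 44, Col4a3, by 0.68 ± 0.15 (95% interval 0.38 to 0.99, limma, adjusted p = 0.0047), where 1.51% of all genes passed and 0.963% passed in this direction. This call was lost when any of 7 single arrays was left out. Col8a1 gave -0.52 ± 0.17 (adjusted p = 0.184) and Col4a2 0.49 ± 0.19 (adjusted p = 0.358), so that a difference was not shown for them. Col4a3 and Col8a1 were dim in neurons, with means of 7.02 and 7.27 with vehicle, and Col4a3 was at 6.89 with dexamethasone. A change of these 2 genes in neurons would thus be hard to see. In neurons the 3 genes with the smallest p were Col6a4 at 0.22 ± 0.09, with arrays of 6.75 to 6.96 against 6.61 to 6.65, Col10a1 at 0.17 ± 0.11 and Col7a1 at 0.16 ± 0.11.

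**Figure D4:**
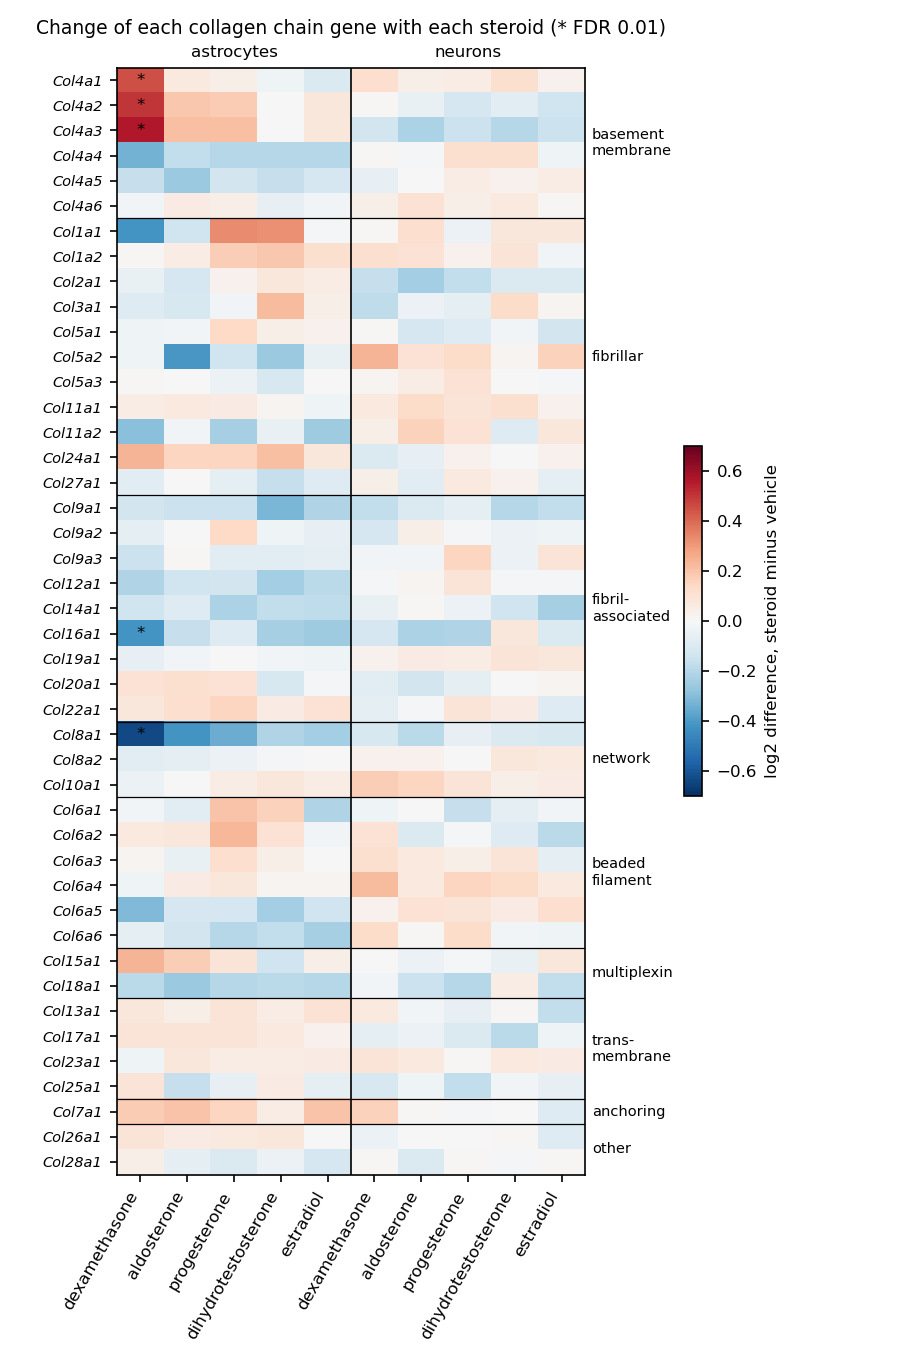
Log2 difference of steroid minus vehicle for the 44 collagen chain genes (rows, by class) with each of 5 steroids in astrocytes and neurons (columns), with asterisks for changes called at FDR 0.01. All 5 asterisks stand in the column of dexamethasone in astrocytes, where changes run from -0.63 for Col8a1 to 0.56 for Col4a3.

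The other steroids changed 0 of the 44 genes in either cell type (limma). In astrocytes, 0.844% of all genes were called with aldosterone (0.672% higher and 0.173% lower), 0.0889% with progesterone, and 0 with dihydrotestosterone or estradiol. All comparisons share the vehicle arrays, so that a vehicle array that is high or low moves them together. With aldosterone 4 members had an unadjusted p under 0.05, a count without a share over all genes beside it. The first was Col8a1, at 11.20, 11.17, 11.17 and 11.02, all below the vehicle arrays, with a change of -0.42 ± 0.11 (95% interval -0.65 to -0.19, adjusted p = 0.0646). Col5a2 read 7.56, 7.68, 8.43 and 7.63 against 8.65, 8.19, 8.03 and 8.08, a difference of -0.41 ± 0.15 (adjusted p = 0.234) in which array 3 overlapped the vehicle arrays. Col7a1 read 7.10, 7.24, 7.26 and 7.09 against 7.01, 6.97, 7.03 and 6.89, a difference of 0.20 ± 0.09 (adjusted p = 0.45).

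With progesterone in astrocytes 5 members had an unadjusted p under 0.05, led by Col8a1, again without a share over all genes beside this count. Col8a1 read 11.03, 10.96, 11.55 and 11.30, of which arrays 3 and 4 lay within or near the vehicle arrays, and gave -0.35 ± 0.11 (limma, adjusted p = 0.408). Col6a6 read 6.63, 6.80, 6.65 and 6.73 against 6.75, 6.91, 7.0 and 6.96, a difference of -0.20 ± 0.09. Col6a2 read 7.41, 7.33, 7.36 and 8.01 against 7.52, 7.10, 7.34 and 7.23, a difference of 0.23 ± 0.10 that rested on array 4. On that array Col1a1 was at 10.43 against 8.66 to 9.39 on the other progesterone arrays, Col6a1 at 9.89 against 8.90 to 9.28, and the mean over the markers of fibroblasts and meningeal cells at 9.08 against 8.49 to 8.59. Col1a1, Col3a1 (7.48 against 6.93 to 7.27), Col6a1, Col6a2 and these markers thus stood highest on the same array. Col1a2, Col6a3, Col6a4, Col6a5 and Col6a6 were highest on other arrays. The part of such cells was not tested.

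With dihydrotestosterone in astrocytes 5 members had an unadjusted p under 0.05. For this count and that with estradiol, the share over all genes was not counted. Col9a1 read 7.04, 7.19, 7.47 and 6.87 against 7.18, 7.31, 7.81 and 7.55, a difference of -0.32 ± 0.12 (limma, adjusted p = 0.521). Col6a5 read 7.20, 7.18, 7.07 and 7.10 against 7.32, 7.57, 7.23 and 7.39, a difference of -0.24 ± 0.09. Col24a1, a fibrillar chain of developing bone, read 7.09, 7.10, 7.05 and 7.05 against 6.77, 6.90, 6.93 and 6.86, a difference of 0.21 ± 0.09. All of these were dim. With estradiol 4 members had an unadjusted p under 0.05. Col6a6 read 6.61, 6.80, 6.48 and 6.82, a difference of -0.23 ± 0.09 (adjusted p = 0.667). Col16a1 read 11.81, 11.89, 11.88 and 12.12, a difference of -0.25 ± 0.10, and Col7a1 read 7.11, 7.26, 7.24 and 7.08, a difference of 0.20 ± 0.09.

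For the 5 genes that changed with dexamethasone in astrocytes, the values with the other steroids stand beside it as follows, at another dose than that of dexamethasone. Col8a1 was below vehicle with every steroid, at -0.42 with aldosterone, -0.35 with progesterone, -0.21 with dihydrotestosterone and -0.24 with estradiol. Col16a1 gave -0.16, -0.09, -0.23 and -0.25 in the same order. Col4a3 gave 0.21, 0.21, 0.00 and 0.08, Col4a2 0.19, 0.18, 0.00 and 0.08, and Col4a1 0.07, 0.04, -0.03 and -0.10. None of these passed the test.

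The 4 steroids at 200 nM were compared with each other in 6 pairs per cell type, adjusted over all pairs together. For 0 of the 44 genes did any pair differ (limma, smallest adjusted p = 0.626 in astrocytes and 0.999 in neurons), where 0.632% of all genes passed for some pair in astrocytes and 0.00988% in neurons. In astrocytes 7 of the 44 genes had an unadjusted p under 0.05 for some pair, and in neurons 2 had, without a share over all genes beside these counts. Aldosterone and progesterone share a carbon skeleton, to which aldosterone adds hydroxyl groups and an aldehyde. Col8a1 differed by -0.07 between them (95% interval -0.30 to 0.16) and Col4a3 by 0.01 (-0.19 to 0.20), so that these arrays leave room for a difference up to the ends of these intervals. Dihydrotestosterone and estradiol differ in that the first ring of estradiol is aromatic, and Col8a1 differed by 0.03 between them (-0.20 to 0.26). The smallest p in astrocytes was that of Col15a1, which was 0.31 higher with aldosterone than with dihydrotestosterone (0.10 to 0.51, adjusted p = 0.626).

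In neurons, 1 gene of all 20250, or 0.00494%, was called with aldosterone and 0 with progesterone, dihydrotestosterone or estradiol (limma). The changes of the 44 collagen genes stayed between -0.24 and 0.16. With aldosterone the 3 smallest p belonged to Col2a1 (-0.24 ± 0.12, arrays of 7.90 to 8.17 against 7.99 to 8.47), Col4a3 (-0.22 ± 0.11, 6.65 to 6.91 against 6.86 to 7.15) and Col16a1 (-0.22 ± 0.11, 9.58 to 10.09 against 9.97 to 10.28). All 3 overlapped the vehicle arrays. With progesterone they belonged to Col16a1 (-0.21 ± 0.11), Col6a4 (0.15 ± 0.09) and Col2a1 (-0.17 ± 0.12), and with dihydrotestosterone to Col4a3 (-0.20 ± 0.11), Col9a1 (-0.20 ± 0.13) and Col17a1 (-0.19 ± 0.12). With estradiol they belonged to Col14a1 (-0.23 ± 0.11), Col6a2 (-0.19 ± 0.11) and Col13a1 (-0.17 ± 0.10). The number of members with an unadjusted p under 0.05 was 3 with aldosterone, 0 with progesterone, 0 with dihydrotestosterone and 1 with estradiol. The share over all genes was not counted for these either.

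A test over both cell types, of whether any steroid moved a gene, called 0 of the 44 (limma F test), where 2.66% of all genes were called. The smallest p was that of Col8a1 (adjusted p = 0.0794). With the array number as a block, which takes out what arrays with the same number share, 1 gene was called, Col8a1. The share of all genes called with this block was not counted.

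The array number itself went with the level of a few members. Tested within each cell type, a comparison added after the data had been seen, it was called for 2 of 44 in astrocytes, where 12% of all genes were called, and for 1 in neurons, where 15.7% were. Col22a1 had means of 9.30, 9.23, 9.06 and 8.90 on the astrocyte arrays of numbers 1, 2, 3 and 4 (limma F test, adjusted p = 0.000335), and Col3a1, a chain of the collagen of vessel walls and skin, had 7.04, 7.14, 7.27 and 7.5 (adjusted p = 0.00651). In neurons Col9a3 had 8.50, 8.68, 8.97 and 8.83 (adjusted p = 0.000418). The means of Col9a3 thus spanned 0.47 between array numbers. They are means over all treatments, 6 arrays each, except that number 3 in neurons has 4 arrays, without vehicle and dexamethasone. The test itself took the treatment into account.

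Of 88 genes in 5 lists that make, process, bind or sense collagen or induce its genes, 52 (59.1%) were higher in astrocytes, against 22.9% of all genes. The lists differed in this. Of 21 measured collagen modifying enzymes and chaperones, 15 were higher in astrocytes and 2 in neurons, with a median of 1.38. They include the collagen chaperone Serpinh1 (2.91 ± 0.09, limma, adjusted p = 1.23e-30), the prolyl 3-hydroxylase P3h2 (3.23 ± 0.09) and the lysyl hydroxylase Plod2 (2.69 ± 0.10). Of 14 genes of procollagen processing and crosslinking, 5 were higher and 1 lower (median 0.12), with the transglutaminase Tgm2 at 5.22 ± 0.10. Of 25 collagen binding matrix proteins, 12 were higher and 2 lower (median 0.22), and the proteoglycan Dcn, which regulates fibrils, was lower in astrocytes, at 9.35 against 12.51 (-3.16 ± 0.38). Of 13 collagen receptors, 9 were higher and 0 lower (median 0.95). Of 15 genes of the TGF-beta pathway, the main known inducer of collagen genes in fibroblasts, 11 were higher and 2 lower (median 1.73).

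Dexamethasone in astrocytes called 6 of these 88 genes (6.82%), a share near the 5.24% of all genes, and the medians of the lists stayed between -0.02 and 0.06. The genes called were the following. Fkbp14, an isomerase that assists collagen folding, rose by 0.61 ± 0.12 (limma, adjusted p = 0.000577), and Colgalt2, a collagen galactosyltransferase, fell by 0.55 ± 0.12 (adjusted p = 0.00193). Tgm2 fell by 0.38 ± 0.09 (adjusted p = 0.00348). The integrin chain Itga2, a collagen receptor, fell by 0.60 ± 0.09 (adjusted p = 1.08e-06). Of the TGF-beta pathway, the receptor Tgfbr1 rose by 0.60 ± 0.13 (adjusted p = 0.00169) and the ligand Tgfb3 fell by 0.79 ± 0.13 (adjusted p = 1.05e-05). None of the 25 matrix proteins was called. With aldosterone, Itga2 fell by 0.38 (adjusted p = 0.00996) and the isomerase Fkbp7 fell by 0.63 (adjusted p = 0.00639). In neurons dexamethasone called 0 genes of these 5 lists.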

How the data were processed

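RNA of 48 cultures was hybridised to Illumina MouseWG-6 v2 arrays. The deposited values are log2 intensities of 46174 probes, for which the methods name raw data from BeadStudio and then background subtraction, quantile normalization and a log2 transformation; which of these steps the table holds is not stated in the sources used here. The deposited non-normalized table holds log2 values without detection p-values, and its columns do not follow their sample identifiers (1 of 48 was nearest to the array it names), so no level was taken from it. Matched by their values, the columns of all 8 chips fall together by cell type and array number, with every treatment once. The number may thus stand for the chip, but this rests on the match of values alone. The chip names in the labels give another layout and were not used. By those names, vehicle and steroid arrays of a cell type shared no chip, nor did the vehicle arrays of both cell types. Under that layout every steroid effect would go with chip. The methods state that each group was spread evenly over the hybridization batches. Arrays of a group correlated at 0.990 to 0.996.

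Probes were named through the platform annotation with symbols updated by RefSeq (35725 with 1 symbol, 10449 without), and the probe with the highest mean represents a gene. The 44 members have 91 probes, 18 members a single one; 2 further probes have a collagen symbol only after the update and were not used. Adjustment was over all probes, and percentages of genes count 1 probe per gene. No probe was filtered out.

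limma (version 3.58.1, R 4.3.3) fitted 12 group means on 46 arrays (34 residual degrees of freedom), tested on simulated data. Array numbers pair the arrays within a cell type, since deviations of same-numbered arrays correlated in all 60 astrocyte pairs (0.115 to 0.325) and all 51 neuron pairs (0.130 to 0.564). The settings varied were the normalization (quantile, by cell type), a minimum mean of 7.5, separate fits, the number as a block (and, added after seeing the data, as a random block), the methods' t-test, all 48 arrays, an exchange of both neuron arrays, the second probe of a gene, and leaving out each array. Python 3.11.15, pandas 2.3.3 and SciPy 1.17.1 made the tables.

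The members and lists were chosen with earlier results of these data known. Named were members called with a steroid, the 10 largest called differences each way between cell types, and the 3 smallest p with each steroid, with every array in astrocytes and ranges or changes in neurons; other genes named in the text were chosen after their values were seen. A few genes of these lists are not reported here.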

Additional observations from a re-analysis of the deposited data

Results flagged for a closer look

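Of 53 groups of 4 arrays examined for a single array far from the others, 3 had one, where chance gives about 1 in 20. In astrocytes with aldosterone, Col5a2 was at 8.43 on array 3 and at 7.56 to 7.68 on the others, and Col8a1 was at 11.02 on array 4 and at 11.17 to 11.20 on the others. In astrocytes with progesterone, Col6a2 was at 8.01 on array 4 and at 7.33 to 7.41 on the others.

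The change of Col4a3 with dexamethasone differed between the cell types by 0.68 on the log2 scale, higher in astrocytes, in the test of the difference itself (limma, adjusted p = 0.0047). Its level in neurons was under 7.5, where a change would be hard to see.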

How the results depend on the processing

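The number of collagen genes called between the cell types stayed between 17 and 24 under the other settings, and was 31 on the arrays of the 4 other steroids. Under the other settings the share of all genes called was not counted, for any of the comparisons here. The 5 genes called with dexamethasone in astrocytes became 3 with separate fits and 0 with the methods' t-test, and ranged from 2 to 4 without single arrays (3 without vehicle array 1 or 2 or dexamethasone array 1 or 3, 2 without dexamethasone array 2). Outside the t-test, Col4a3 (0.46 to 0.64) and Col8a1 (-0.77 to -0.58) were called in all of 14 and 16 settings, Col4a1 in 10 of 15, Col4a2 in 9 of 15 and Col16a1 in 8 of 15. The difference of the dexamethasone effect between cell types called 0 genes with a minimum mean of 7.5, which leaves Col4a3 untested, and 0 to 1 without single arrays (0 without astrocyte vehicle 3 or 4, astrocyte dexamethasone 3, neuron vehicle 1 or 2, or neuron dexamethasone 1 or 2). The replicate block gave 1 gene in the test over all steroids in place of 0, and changed no other count by more than 1.5 times. The number as a random block, added after seeing the data, called the same 22 genes between cell types and the same 5 with dexamethasone in astrocytes. Second probes had the opposite sign for Col1a1 (-1.60), Col9a3 (0.25) and Col22a1 (-0.02) between cell types, and, among changes that were not called, for Col7a1 with aldosterone in astrocytes (-0.03) and, in neurons, for Col13a1 (0.20) and Col6a2 (0.02) with estradiol and Col17a1 with dihydrotestosterone (0.01). The causes were not tested. Dim probes limit what could be seen for the 18 genes under 7.5 in both cell types.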
